A study of Drosophila melanogaster with 2 samples.

Results

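The Rab, Arf and Arl genes of *Drosophila melanogaster* were taken as the protein-coding genes whose symbol begins with Rab followed by a digit or X, or with Arf or Arl followed by a digit. This gave 46 of 13968 protein-coding genes. Of these, 42 encode small GTPases, and 4 encode regulators or partners that carry such a symbol (Arl6IP1, Rab3-GAP, Rab3-GEF and Rab3GAP1). The data were sites occupied by Ada2b in whole embryos aged 0 to 18 h from a transgenic strain expressing an Ada2b-eGFP fusion, mapped by chromatin immunoprecipitation with an antibody to GFP and sequencing. There was 1 group, with 2 biological replicates and no second condition, so each count below is set beside the same count over all protein-coding genes and no test was made. Such embryos mix stages and cell types, and strong binding in few cells and weak binding in many cannot be told apart. The deposited peak lists do not give read depth. The conservative list was made by the authors from both replicates, with a threshold on the irreproducible discovery rate (IDR), a measure of how well peak ranks repeat, and held 4796 peaks on the chromosome arms. Replicate 1 alone gave 3761 and replicate 2 alone gave 3019.

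Rab and Arf family proteins are molecular switches that bind GTP on membranes and recruit the proteins that form, move, tether and fuse vesicles. Exchange factors (GEFs) load them with GTP, GTPase-activating proteins (GAPs) switch them off, and effectors read the active form. Each member marks particular membranes, such as Rab5 on early endosomes, Rab11 on recycling endosomes and Arl1 on the trans-Golgi. Ada2b is a subunit of the SAGA coactivator, which acetylates histone H3 through Gcn5.

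The windows below are shown because they hold the peaks on which the results turn. Each spans 181 bases centred on a peak summit, read from the genome (NCBI Release 6, the dm6 build), 5′ to 3′ on the strand of the named gene. Capitals mark the DNA replication-related element TATCGATA (DRE) and the core promoter element GGTATTT (motif 6), motif 6 being written AAATACC where it lies on the other strand. The first 5 come from peaks shared with a neighbouring gene. The Rab5 window lies before an internal start, and the Rab11 window lies in an intron.
Arl1 (chr3L:15982920-15983100, plus strand): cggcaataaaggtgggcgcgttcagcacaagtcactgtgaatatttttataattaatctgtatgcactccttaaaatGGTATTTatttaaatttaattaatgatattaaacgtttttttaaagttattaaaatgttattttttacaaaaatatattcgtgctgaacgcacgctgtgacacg
Arl5 (chr3L:8299820-8300000, minus strand): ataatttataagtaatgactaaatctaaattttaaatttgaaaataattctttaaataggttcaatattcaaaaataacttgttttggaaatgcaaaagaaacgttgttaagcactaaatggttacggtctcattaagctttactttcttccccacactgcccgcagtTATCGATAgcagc
Arl8 (chr3R:8126375-8126555, plus strand): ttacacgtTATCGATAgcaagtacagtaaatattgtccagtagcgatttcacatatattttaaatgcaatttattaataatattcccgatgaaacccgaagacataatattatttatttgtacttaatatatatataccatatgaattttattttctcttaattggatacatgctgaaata
Rab30 (chr2L:7032559-7032739, minus strand): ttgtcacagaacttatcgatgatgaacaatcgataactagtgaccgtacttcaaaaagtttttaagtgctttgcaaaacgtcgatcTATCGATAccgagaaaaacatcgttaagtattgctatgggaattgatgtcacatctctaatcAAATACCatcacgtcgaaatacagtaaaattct
Rab8 (chr3L:19871039-19871219, minus strand): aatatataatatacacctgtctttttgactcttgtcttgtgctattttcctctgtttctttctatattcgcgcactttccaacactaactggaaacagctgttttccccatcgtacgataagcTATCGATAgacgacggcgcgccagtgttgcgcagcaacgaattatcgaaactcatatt
Rab5 (chr2L:2363675-2363855, minus strand): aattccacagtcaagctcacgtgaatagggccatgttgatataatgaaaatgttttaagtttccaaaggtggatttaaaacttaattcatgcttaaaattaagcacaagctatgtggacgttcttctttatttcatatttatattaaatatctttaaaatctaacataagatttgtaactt
Rab11 (chr3R:21113112-21113292, plus strand): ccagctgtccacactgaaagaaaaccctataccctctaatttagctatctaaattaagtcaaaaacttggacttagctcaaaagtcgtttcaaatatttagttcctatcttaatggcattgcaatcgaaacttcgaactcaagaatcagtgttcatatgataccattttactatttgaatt

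A peak within 500 bp of a transcription start site (TSS), here called a promoter peak, was found at 8 of the 46 genes in the conservative list. That is 17.4% (95% Clopper-Pearson interval 7.82 to 31.4), beside 17.5% of all protein-coding genes. The 8 were Arl1, which brings golgin tethers to the trans-Golgi, Arl5, a Golgi GTPase, Arl8, which moves lysosomes, the endosomal Rab5 and Rab39, the Golgi Rab30, the secretory Rab8, and Rab3GAP1, a subunit of a complex that acts on Rab GTPases. The share of these genes with a promoter peak lay close to that of all genes. A peak inside the gene, over 500 bp from each of its starts, was found at 4 members, Rab11, Rab14, Rab23 and Rab32. That is 8.70% (interval 2.42 to 20.8), beside 8.48% of all genes. Counting either kind of peak, 12 of 46 members had one (26.1%, against 23.2% of all genes) and 34 had neither. These intervals cover counting error only, and a peak counted for 2 genes makes their counts dependent.

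The count depended on the list. Replicate 1 alone gave a promoter peak at 6 members (13.0%, interval 4.94 to 26.3), beside 14.2% of all genes. Replicate 2 alone gave 8 (17.4%, interval 7.82 to 31.4), beside 13.2%. Over the replicates the share was 15.2% ± 3.07 of the members and 13.7% ± 0.71 of all genes (SD, n = 2). The second thresholded list of both replicates, here called the second list, gave 11 (23.9%, interval 12.6 to 38.8), beside 17.9%. In every list the interval for the members held the share of all genes. Peaks inside genes were found at 3 members (6.52%, interval 1.37 to 17.9) in each of these other lists, beside 7.22% of all genes in replicate 1, 6.04% in replicate 2 and 8.8% in the second list.

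**Figure D1:**
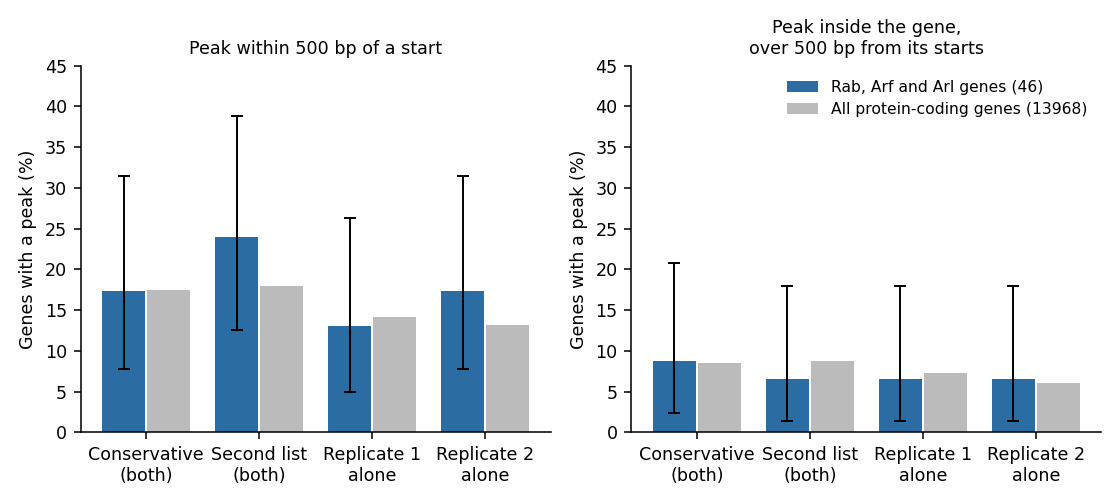
Percent of genes with a promoter peak (left) and with a peak inside the gene (right) in 4 deposited lists, for the 46 Rab, Arf and Arl genes (blue, bars show 95% Clopper-Pearson intervals) and all 13968 protein-coding genes (grey). The blue promoter bars run from 13.0% in replicate 1 to 23.9% in the second list, and each interval holds the grey value beside it.

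Promoter peaks recurred in both single replicates at 5 members, Arl1, Arl5, Rab5, Rab39 and Rab3GAP1 (10.9%, against 10.8% of all genes). Rab8 had one in replicate 1 only (2.17% of members, against 3.41% of all genes). Arl8, Rab30 and Arf6 had one in replicate 2 only (6.52%, against 2.40%). The second list added Arf6, which acts at the plasma membrane, Rab11 and Rab3-GAP, a Rab3 regulator, to the 8 of the conservative list. Promoter peaks in the second list but not the conservative one were at 6.52% of members, against 1.73% of all genes. Of the peaks inside genes, those of Rab11, Rab14 and Rab32 were in all 4 lists (6.52% of members, against 5.30% of all genes). That of Rab23 was in the conservative list alone. In all, 14 members had a peak of either kind in at least 1 of the 4 lists (30.4%, against 25.9% of all genes), and 32 had none.

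Arl1 carried the strongest promoter peak of the 8 by a wide margin. Peak signal is the value of the authors' caller and is compared only within a list. In the conservative list the Arl1 peak (3L 15982863 to 15983145) had a signal of 837, rank 40 of the list, with its summit 125 bp upstream of the start. Its signal was 488 in replicate 1 and 350 in replicate 2, and its percentile among genes with a promoter peak in each list was 98.3 for replicate 1 and 97.9 for replicate 2 (98.1 ± 0.286, SD, n = 2). The Arl1 peak stood near the top of each list.

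Rab5, needed for early endosome fusion, came next with a signal of 214 (2L 2363689 to 2363815). Its signal was 133 in replicate 1 and 81.3 in replicate 2, at percentiles 79.1 and 67.5 (73.3 ± 8.19, SD, n = 2). In replicate 2 Rab3GAP1 stood just above it, at a signal of 82.3 and percentile 68.2. Rab5 has 6 annotated starts, and this summit lay at -261 bp from an internal one, in an intron 1508 bp downstream of the most 5′ start. Replicate 2 also held a weaker Rab5 peak in the 5′ UTR with a signal of 34.2, located 407 bp past an internal start. The main Rab5 peak was thus a promoter peak only by an internal start, and with the most 5′ start alone it counted as a peak inside the gene.

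The next 3 were of like strength and were found in each replicate. Rab3GAP1 had a signal of 175 (2L 1611165 to 1611474), with 84.9 in replicate 1 and 82.3 in replicate 2 (percentile 64.5 ± 5.14, SD, n = 2). Rab39, which acts at lysosomes, had a signal of 143 (X 7734391 to 7734700), with 71.0 in replicate 1 and 72.7 in replicate 2 (percentile 56.8 ± 8.43). Arl5 had a signal of 139 (3L 8299755 to 8300064), with 69.7 in replicate 1 and 66.1 in replicate 2 (percentile 53.4 ± 5.26). Their percentiles kept this order in both replicates.

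The last 3 rested on 1 replicate each beyond the joint lists. Arl8 had a signal of 90.9 (3R 8126310 to 8126619) and 57.0 in replicate 2, where it stood at percentile 47.9. Rab30 had a signal of 73.0 (2L 7032494 to 7032803) and 38.1 in replicate 2, at percentile 21.0. Rab8, which serves polarized exocytosis, had a signal of 65.5 (3L 19870974 to 19871283) and 36.4 in replicate 1, at percentile 4.97, where the summit lay 16 bp past the start, in the 5′ UTR. All 3 lay below the median of genes with a promoter peak in those lists.

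**Figure D2:**
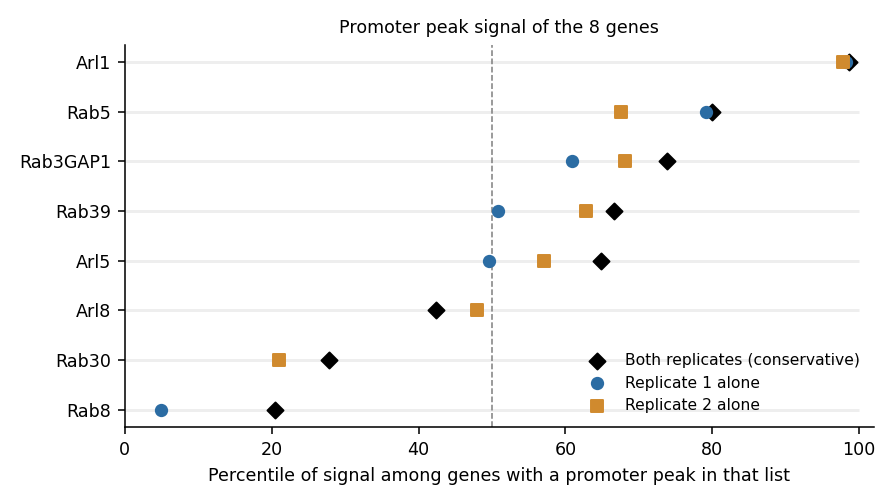
Percentile of each member's strongest promoter peak among all genes with a promoter peak in the same list, for the conservative list (diamonds), replicate 1 (circles) and replicate 2 (squares); the dashed line is the median gene. Arl1 lies at 97.9 or above in all 3 lists, and Arl8, Rab30 and Rab8 lie below the line, each with a mark for 1 replicate only.

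The median percentile was 65.7 over the 8 members with a promoter peak in the conservative list. It was 55.9 over the 6 in replicate 1 and 59.9 over the 8 in replicate 2 (57.9 ± 2.87, SD, n = 2), where the sets differ, since replicate 1 lacks Arl8 and Rab30 and replicate 2 lacks Rab8 and holds Arf6. Over the 11 in the second list it was 43.7. That set added Arf6, Rab11 and Rab3-GAP, at percentiles 9.27, 7.86 and 0.638. The 8 members of the conservative list stood at like percentiles in both lists (Arl1 at 98.6 and 98.7, Rab8 at 20.5 and 21.7). Median signal was 141 for members against 104 for all genes with a promoter peak in the conservative list, 78.0 against 70.1 in replicate 1, 69.4 against 58.8 in replicate 2, and 90.9 against 101 in the second list. The median of the members thus stood on either side of the median gene, depending on the list and the set of members in it. All 8 summits lay upstream of the start they were assigned to, at a median of -132.5 bp (range -377 to -43), against 87.6% of the 2444 genes with a promoter peak and a median of -136 bp.

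Most of these peaks lay between a pair of genes that start back to back. In the conservative list 7 of the 8 promoter peaks (87.5%, interval 47.3 to 99.7) were also within 500 bp of a start of another protein-coding gene, beside 55.3% of all genes with a promoter peak. The count was 8 of 11 in the second list (72.7%, beside 55%), 5 of 6 in replicate 1 (83.3%, beside 54.9%) and 7 of 8 in replicate 2 (87.5%, beside 57.8%). The interval of the conservative list held the share of all genes. Rab5 was the member with an unshared peak there. Signal at a shared peak belongs to neither gene alone.

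In all 7 the neighbour read away on the opposite strand. The Arl1 summit lay 125 bp before Arl1 and 141 bp before brm, the ATPase of the Brahma chromatin remodelling complex, whose starts are 266 bp apart. The Rab39 summit lay 377 bp before Rab39 and 105 bp inside Pdp, a pyruvate dehydrogenase phosphatase gene, with starts 272 bp apart. Pdp has a further start 485 bp from that of Rab39, and in replicate 1 the summit lay 93 bp before it. The Rab30 summit lay 43 bp before Rab30 and 72 bp before Caper, an RNA-binding splicing factor, with starts 115 bp apart. The Rab8 summit lay 51 bp before Rab8 and 10 bp before Usp32, a ubiquitin protease gene, with starts 61 bp apart. The other neighbours were CG13671 at Arl5, CG9667 at Arl8 and CG14352 at Rab3GAP1, with starts 225, 248 and 253 bp from the member's. The summit was nearer to the member at Arl1, Arl5 and Rab30, and nearer to the neighbour at the other 4. In the second list Arf6 shared its peak with CG8155, whose start is 330 bp away.

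**Figure D3:**
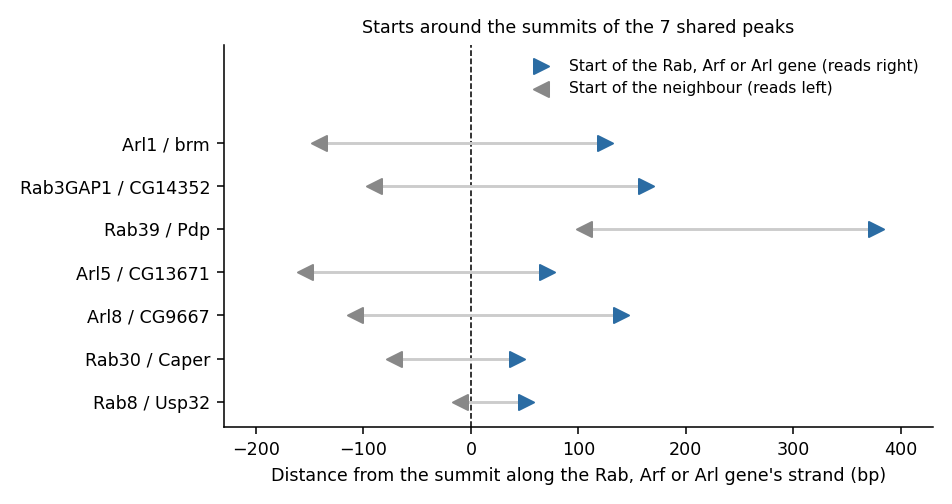
Start of each Rab, Arf or Arl gene (blue, reading right) and of the neighbour that shares its peak (grey, reading left), in bp from the summit (dashed line) in the conservative list. The neighbour's start nearest to the summit is drawn. The summit lies between both drawn starts at 6 pairs. At Rab39 and Pdp both drawn starts lie on 1 side of it, and Pdp has a further start that is not drawn.

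Paired starts were common among these genes, bound or not. Another gene's start lay within 500 bp of a start of 22 members (47.8%), against 30.8% of all genes. The nearest such neighbour was on the opposite strand in all 22, against 3663 of the 4309 among all genes with one. All 8 members with a promoter peak were among these 22 (36.4%, interval 17.2 to 59.3). Rab5 is among them by a start 72 bp from Axud1, while its unshared peak lies at another, internal start. Of all genes with such a neighbour, 1359 of 4309 had a promoter peak (31.5%, interval 30.2 to 32.9). Of the 24 members with no other start that near, the conservative list gave 0 a promoter peak. By 3 counts a share of up to 12.5% is allowed, against 1085 of 9659 such genes (11.2%, interval 10.6 to 11.9). In the second list the count was 2 of 24, Rab11 and Rab3-GAP (8.33%, against 11.6% of such genes). This split was chosen after the peaks had been seen, and a shared peak requires a second start nearby, so 7 of the 8 fall on that side almost by definition. Members with a paired start and no promoter peak in the conservative list included Rab2, which acts between ER and Golgi and starts 78 bp from Mob4, Rab7 of late endosomes, 92 bp from Epp, and Arf1, which recruits COPI coats, 27 bp from CG11109.

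**Figure D4:**
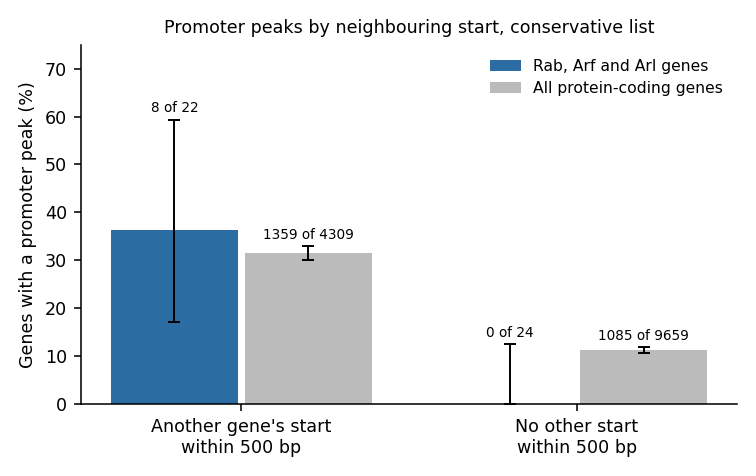
Percent of genes with a promoter peak in the conservative list, for genes with and without another gene's start within 500 bp, for the Rab, Arf and Arl genes (blue) and all protein-coding genes (grey), with 95% Clopper-Pearson intervals (for 0 of 24, the line runs up to the 12.5% that 3 counts would make). The blue values are 8 of 22 and 0 of 24, and the grey ones are 1359 of 4309 and 1085 of 9659.

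The peaks inside genes all lay in introns in the conservative list. Rab11, the recycling endosome GTPase, held the strongest, with a signal of 240 at 3R 21113146 to 21113279, 1794 bp past its start. Its signal was 150 in replicate 1 and 93.5 in replicate 2, at percentiles 88.3 and 79.5 of all peaks in those lists. A second Rab11 peak of signal 54.6 lay 1260 bp past the start, in the conservative list alone. Rab11 thus had intronic peaks in each list, but a promoter peak, of signal 51.8 and 127 bp upstream, in the second list only.

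Rab14, an endosomal Rab, had a signal of 146 at 2L 14355582 to 14355891, 592 bp past its start, with 94.4 in replicate 1 and 49.5 in replicate 2. A long noncoding RNA gene, lncRNA:CR44851, covers that summit, and within 1000 bp of a start it would count as a promoter peak. Rab32, a GTPase of lysosome-related organelles including eye pigment granules, had a signal of 76.6 at 2R 9184540 to 9184849, with 42.7 in replicate 1 and 34.6 in replicate 2. Rab23, which regulates Hedgehog signalling in mouse, had a signal of 54.5 at 3R 5683011 to 5683320, and in neither replicate alone. Members held 3.76 such summits per 100 kb of gene in the conservative list (5 in 133 kb, 2 of them in Rab11), against 2.56 over all genes. The density was 2.26 in the second list, against 2.72 over all genes, 3.01 in replicate 1, against 2.02, and 2.26 in replicate 2, against 1.52. The replicate 1 value counts 4 summits, among them a further Rab11 peak with a signal of only 3.94, rank 3743 of 3761.

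The ranked lists also hold candidates that failed the threshold, and so can show near misses, though the values differed between lists. The first ranked list, which holds every peak of the conservative list, was used here. In it 34 members had a candidate within 500 bp of a start (73.9%), beside 70.7% of all genes. A candidate passes at a −log10 IDR of 2, and the highest value in the list is 5. Arl1, Arl5, Rab5, Rab39 and Rab3GAP1 stood at 5. The next above the threshold were Arl8 at 3.43, Rab30 at 3.21 and Rab8 at 3.11. The nearest below it were Rab3-GAP at 1.68, Rab35, an endosomal recycling Rab, at 1.52, Rab11 at 1.46, Rab40 at 1.33 and Rab3-GEF, an exchange factor for Rab3, at 1.19. The other 21 members with a candidate lay below 1. They were Rab26, a secretory vesicle Rab, at 0.986, Arf6 at 0.895, and, from 0.447 at Rab1, which acts between ER and Golgi, down to 0.0557, Arf1, Arl2, Arl6, Rab3, Rab6, Rab7, Rab9, Rab9D, Rab9Db, Rab9Fb, Rab10, Rab14, Rab18, Rab23, Rab27, Rab32, RabX1 and RabX6. No member lay between 2 and 3.11, and the median over members with a candidate was 0.408, against 0.295 over all genes with one.

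The single-replicate ranked lists showed how near the missing calls were. Rab30 had a candidate in replicate 1 with a signal of 33.9 and a −log10 IDR of 1.95, and Rab8 had one in replicate 2 with a signal of 29.4 and 1.93. Arl8 had one in replicate 1 at 1.34. These 3 were thus candidates in both replicates that passed in only 1. Arf6 differed, with no candidate within 500 bp of a start in replicate 1. Its upstream candidate, at -221 bp, had a −log10 IDR of 3.45 in replicate 2. That candidate stood at 2.62 in the other ranked list of both replicates, but at 0.115 in the first ranked list. The Arf1 candidate at -54 bp stood at 0.439 in the first ranked list and 1.92 in the other, and that at -51 bp in replicate 1 at 1.19. In replicate 2 the highest Arf1 value, 0.145, belonged to a different candidate, 3 bp past a start. In replicate 2, Rab3 reached 1.29, RabX1 1.24 and Rab7 1.12. The Rab40 candidate 8 bp past a start stood at 1.33 in the first ranked list and 0.126 in the other. In the other list the highest Rab40 value, 0.255, belonged to a different candidate, at -323 bp. The order below the threshold thus depended on the list. Candidates were found for 29 members in replicate 1 (63.0%, against 61.9% of all genes) and 33 in replicate 2 (71.7%, against 57.3%).

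**Figure D5:**
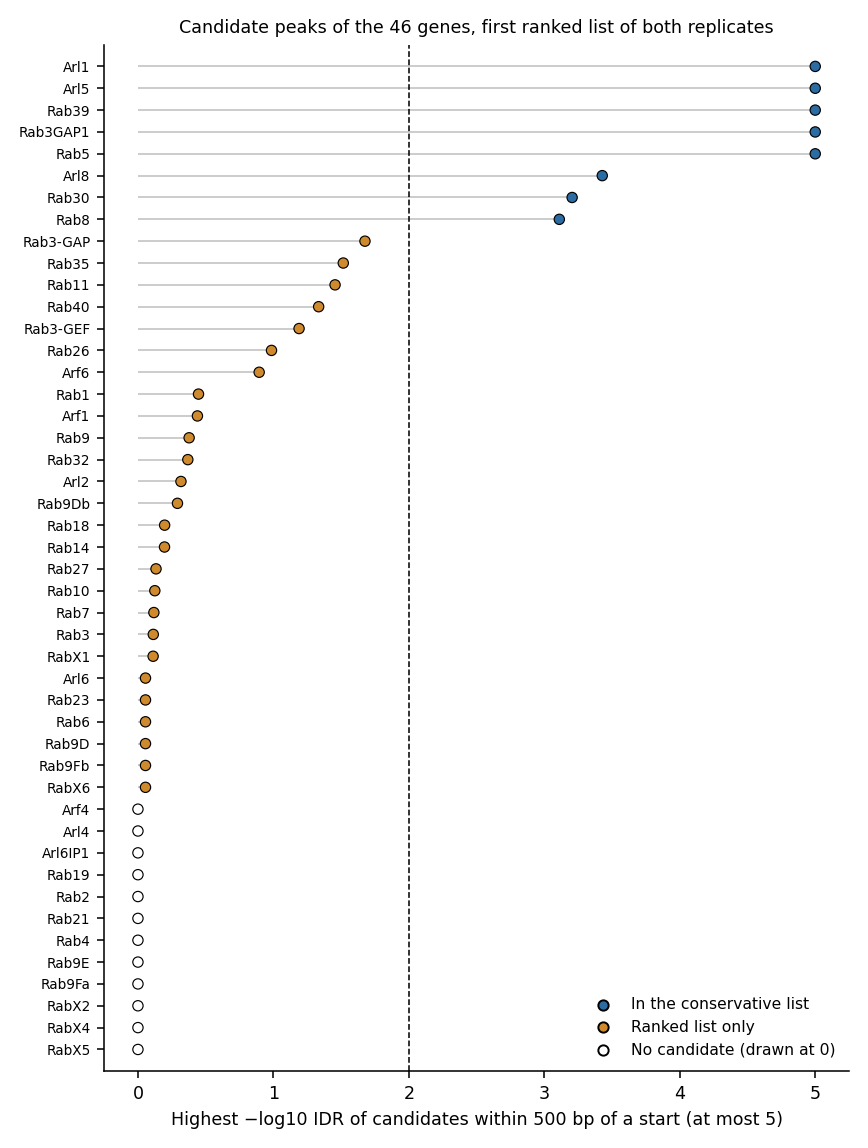
Highest −log10 IDR among candidates within 500 bp of a start, for each of the 46 genes in the first ranked list of both replicates; the dashed line at 2 is the threshold, and open circles at 0 mark genes with no candidate. The 8 genes of the conservative list lie at 3.11 or above, 5 genes lie between 1 and 2, and 12 have no candidate.

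By role, promoter peaks in the conservative list were found at 3 of 6 Arl genes, 0 of 3 Arf genes, 1 of 6 ER and Golgi Rabs, 2 of 9 endosomal and lysosomal Rabs, 1 of 5 secretory Rabs, 0 of 3 other conserved Rabs, 1 of 4 regulators and 0 of 10 RabX genes and Rab9 copies. The groups are too small to rank. A count of 0 of 10 allows a share of up to 30% by 3 counts. The 12 members with no candidate in the first ranked list were Arf4, Arl4, Arl6IP1, Rab2, Rab4, Rab19, Rab21, Rab9E, Rab9Fa, RabX2, RabX4 and RabX5. Rab9D, Rab9Db, Rab9E and Rab9Fa are near-identical genes on X, 98.5% to 99.4% identical in pairs. How reads that match several copies were treated is not known from the sources used here, so a missing peak there is uncertain. Arl5 and Rab19 overlap by 6 bp at their 3′ ends, away from the Arl5 peak. By arm, members with a promoter peak numbered 3 of 7 on 2L (17.8% of all genes there), 0 of 7 on 2R (16.8%), 3 of 8 on 3L (18.99%), 1 of 8 on 3R (18.2%), 0 of 2 on the 4th chromosome (5%) and 1 of 14 on X (15.7%).

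Sequence elements were sought as exact letters on both strands. The DRE (TATCGATA), a site bound by the factor DREF, was found within 150 bp of the most 5′ start of 13 of the 46 genes (28.3%), against 8.53% of all starts and 11.7% of the starts of genes with a promoter peak. It was there at 3 of the 8 genes with a promoter peak (Arl5, Rab8 and Rab30), and 10 of the 38 without one, among them Rab2, Rab6, a Golgi Rab, Rab7 and Rab35. The element was thus found at starts of members with and without a peak. Within 150 bp of the summit, 4 of 8 member promoter peaks held a DRE, against 9.19% of the 1959 promoter peaks. Its centre lay 81 bp past the summit at Arl5, 78 bp before it at Arl8, 1 bp before it at Rab30 and 36 bp past it at Rab8.

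Other elements at those summits were motif 7 (CANCNCTA) at 5 of 8 against 21.6% of all promoter peaks, motif 6 (GGTATTT) at 2 of 8, Arl1 and Rab30, against 9.85%, and the GAGA factor letters, GAGAG, at 0 of 8 against 32.9%. The core CGATA, which BEAF-32 binds and which the DRE contains, was at 4 of 8 against 47.8%. The TATA box (TATAAA) was at 4 of 8 against 47.1%, and motif 1 (GGTCACACT) at 0 of 8 against 4.75%. At the 5 peaks inside members the DRE was at 0, GAGAG at 2 against 37.6% of all peaks inside genes, and the E-box CAGCTG at 2 against 12.1%. The 8 promoter windows were poor in G and C, with a median of 29.3% (24.9% to 40.9%) against 34.3% over all promoter peaks. A match is letters only, and the counts are of 8 and 5 windows.

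Genes that act on these GTPases were also listed, by role, and are given beside the 17.5% of all genes in the conservative list, 14.2% in replicate 1 and 13.2% in replicate 2. Rab exchange factors had a promoter peak at 9 of 21 genes in the conservative list (42.9%), 8 in replicate 1 and 6 in replicate 2, led by Mon1, part of the Rab7 exchange factor, with a signal of 335. Rab GAPs had 4 of 13 (3 and 4 in replicates 1 and 2), with TBC1d7 at 249 and sky at 221. Rab effectors had 11 of 27 (40.7%; 7 in replicate 1 and 8 in replicate 2), with Rbsn-5, an endosomal Rab5 effector, at 234 and Golgin245, a Golgi tether, at 228. Prenylation and recycling factors had 4 of 8 (3 in replicate 1 and 4 in replicate 2), led by Jwa at 155 and including both subunits of the enzyme that prenylates Rabs, RabGGTa (131) and RabGGTb (115). Arf GEFs had 2 of 5, garz at 166 and step at 51.0, with 1 in each replicate. Arf GAPs had 4 of 7, with 3 in each replicate, led by CenG1A at 1360, a peak shared with mRpS23. Arf and Arl effectors and other partners had 12 of 27 (44.4%), but 5 in replicate 1 and 8 in replicate 2. They were led by the clathrin adaptor subunit AP-1sigma at 338, Snapin at 250 and the coat subunit alphaCOP at 231. Arf-like GTPases outside the symbol rule had 1 of 4, dnd at 50.1, with 0 in replicate 1 and 1 in replicate 2. Over these lists 47 of 111 genes had such a peak (42.3%), with 30 in replicate 1 and 35 in replicate 2. The peaks of Mon1, TBC1d7, Rbsn-5, RabGGTb, garz, step, AP-1sigma, Snapin and alphaCOP were also shared with a neighbouring gene. Those of sky, Golgin245, Jwa, RabGGTa and dnd were not. Signal at the shared peaks belongs to neither gene alone. These lists were drawn up by hand, and their difference from the 8 of 46 Rab, Arf and Arl genes was not tested.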

How the data were processed

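The 8 deposited peak lists were used: 4 thresholded lists (conservative and second for both replicates, and 1 for each replicate) and 4 ranked lists. Per the notes deposited with each sample, the lists derive from dm6 alignments of 1 or both replicates and a further input taken to be the control, which was not analysed here. Of the ranked lists of both replicates, the first held all 4797 conservative peaks and the other all 4990 peaks of the second list. No aligner or caller is named in the sources used here. The deposited score of a peak is a rescaled IDR by the authors, with a lowest value of 830 in the thresholded lists. The deposited signal is the authors' caller value, is not normalized between lists, and was used only within a list. Of the deposited −log10 values, the −log10 IDR of the ranked lists was used, as made by the authors.

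Genes and starts came from Ensembl release 115 and sequence from NCBI Release 6. Summits on the 7 arms were assigned to every protein-coding gene with a TSS within 500 bp. A summit inside a gene and over 500 bp from that gene's own starts counted as inside it. This held even where the summit was a promoter peak of another gene. A gene's percentile is that of its strongest promoter peak among genes with one in that list. Gene assignment was tested on simulated data. The members and the lists of related genes were chosen with earlier results of these data known, and symbols in the related lists were corrected after member values were seen but before the values of the listed genes. Every member was named, with full values for those with a peak in the conservative list, up to 3 genes of each related list with the strongest promoter peak, and the neighbour at each shared peak. Of the related genes a selection is given. 1 list of related genes is not reported here. Alternatives were the second list, each replicate, other TSS windows, any overlap of the peak with the window, the most 5′ TSS, the nearest gene, stronger peaks and the 42 GTPase genes alone. Tools were Biopython 1.88, matplotlib 3.10.9, scipy 1.17.1, pandas 2.3.3 and numpy 2.4.6 under Python 3.11.15.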

Additional observations from a re-analysis of the deposited data

How the results depend on the processing

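The count of members with a promoter peak, 8, was 11 in the second list (23.9%, against 17.9% of all genes). It was 6 within 250 bp, without Rab5 and Rab39 (13.0%, against 13.7%). Within 1000 bp it was 9 (19.6%, against 20.7%), and with any overlap of the peak 9 (19.6%, against 18.8%), both adding Rab14. With the most 5′ TSS it was 7, without Rab5 (15.2%, against 15.2%). With peaks at or above the median signal it was 6 (13.0%, against 10.6%). Of the 42 GTPase genes it was 7 (16.7%, against 17.5%). Counting each peak for the nearest gene only gave 4 (8.70%, against 13.1% of all genes), and that setting gives no value for shared peaks. Peaks at or above the median signal left 2 of the 46 members with a peak inside the gene, beside 5.20% of all genes. Leaving out 1 replicate gave 6 to 8 members with a promoter peak, 3 with a peak inside the gene and 5 to 7 with a shared peak. The median percentile of the members' peaks, 65.7, ran from 55.9 to 59.9 without 1 replicate. It was 43.7 in the second list, 53.2 within 250 bp, 73.6 with the nearest gene only and 50.7 with the stronger peaks. The set of members also differed in these settings. In the second list it added Arf6, Rab11 and Rab3-GAP, at percentiles 9.27, 7.86 and 0.638. Beyond these changes of set, the cause of the shifts was not tested. For the 5 genes with a promoter peak in both replicates, 30 of 44 percentiles under the alternatives moved by less than the SD of their replicates and 14 by more. For Arl8, Rab30 and Rab8, which have no such SD, 18 of 23 stayed within the 95% binomial interval of the reported percentile. Both counts include the setting with GTPase genes alone, which leaves each percentile unchanged by construction. They also include the single-replicate settings, whose values gave the SD. These counts are therefore not a measure of stability. No paired analysis was possible because there is 1 group. With 46 genes, the intervals are wide, and depth is not known.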
